A study of Mus musculus with 21 samples.

Results

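RNA polymerase I (Pol I) and the proteins that turn its transcript into ribosomal subunits were followed as a set of 36 genes, taken by symbol from the 14732 genes of the deposited table. All 36 were in the table, and all passed the filter on low counts that left 12333 genes for testing. The set holds 5 subunits of Pol I, 3 initiation factors, 4 proteins of box C/D small nucleolar ribonucleoproteins (snoRNPs), 4 proteins of H/ACA snoRNPs, 8 small-subunit assembly factors, 8 large-subunit assembly factors and 4 abundant nucleolar proteins. The 21 libraries came from heart ventricles of male mice aged 2 months, carrying a knockout of Taz (KO/Y) or its wild-type allele (WT/Y). Taz encodes tafazzin, the mitochondrial enzyme that remodels cardiolipin. The knockouts numbered 4 in the BL6J background, 3 in AJ-F1 and 3 in CAST-F1, and their wild-type littermates 4, 4 and 3. The labels give no further allele, agent or treatment for any group, and do not describe the Taz allele, the cells it is lost from or the cross behind each F1 name. They also do not say that each library is a separate animal, and the p-values below then reflect only how far these libraries spread, which may in part be technical.

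Ribosome production starts in the nucleolus, where Pol I transcribes the ribosomal RNA precursor. Box C/D and H/ACA snoRNPs then methylate and pseudouridylate it, and assembly factors fold and cut it into the precursors of the small and large subunits. In heart muscle this machinery is known to be raised during hypertrophic growth. The libraries were made from polyA RNA, so the values are messenger RNA of the machinery and hold no measure of ribosomal RNA itself.

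Read totals per library were 3848172 to 10738130, and a member had 10 to 2251 reads in a library. Levels are given as CPM, counts scaled to a common library size with TMM factors. Taz itself averaged 5.84, 2.49 and 1.98 CPM in KO hearts of BL6J, AJ-F1 and CAST-F1, against 43.8, 54.8 and 45.3 CPM in WT hearts of the same backgrounds. A library in each of 2 groups stood apart from its group. BL6J KO 2 had a summed member level of 1510 CPM, where the other BL6J KO hearts had 2086 to 2184 CPM. AJ-F1 WT 3 had 38.7 CPM of Npm1, where the other AJ-F1 WT hearts had 72 to 119 CPM, and it was the highest of its group in the summed fibroblast markers (2459 CPM) and endothelium markers (2677 CPM). The BL6J and AJ-F1 counts of rising members, and the number rising in all 3 backgrounds, are also given below without these libraries.

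The promoters of 5 members are printed here from RefSeq (GRCm38.p6), each from 250 bases before to 50 bases after the annotated start, so that start regions of members that rose and of one that did not pass the test can be set side by side. RefSeq promoters were found for 31 of the 36 members (not for Fbl, Npm1, Bop1, Nol6 and Rrp12). In the average of the 3 backgrounds Nhp2 and Gnl3 had the smallest p-values of the set, Ubtf the largest p-value among the members with a promoter, Pes1 carries an E-box and Nop14 is the member with an ATF4 composite core. Capitals mark a match to a searched motif. The motifs were the E-box CACGTG, which Myc-Max dimers bind, the core TGATGNAA of ATF4 composite sites and the ETS core CGGAAG, each read on both strands. The core CGGAAG marks promoters of many broadly expressed genes.
Nhp2, chr11:51619523-51619822, plus strand: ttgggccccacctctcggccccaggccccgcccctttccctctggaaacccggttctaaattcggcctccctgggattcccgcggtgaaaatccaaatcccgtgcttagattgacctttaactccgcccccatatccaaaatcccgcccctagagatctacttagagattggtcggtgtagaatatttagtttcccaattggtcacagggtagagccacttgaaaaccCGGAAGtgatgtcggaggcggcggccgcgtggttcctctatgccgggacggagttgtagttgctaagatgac
Gnl3, chr14:31019082-31019381, minus strand: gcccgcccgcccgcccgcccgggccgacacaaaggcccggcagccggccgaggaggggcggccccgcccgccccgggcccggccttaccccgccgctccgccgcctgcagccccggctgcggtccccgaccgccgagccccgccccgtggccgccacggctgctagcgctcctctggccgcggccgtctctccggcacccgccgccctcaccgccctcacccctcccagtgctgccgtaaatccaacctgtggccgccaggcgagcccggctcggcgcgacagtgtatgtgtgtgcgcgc
Ubtf, chr11:102319543-102319842, minus strand, 1 of 6 listed starts: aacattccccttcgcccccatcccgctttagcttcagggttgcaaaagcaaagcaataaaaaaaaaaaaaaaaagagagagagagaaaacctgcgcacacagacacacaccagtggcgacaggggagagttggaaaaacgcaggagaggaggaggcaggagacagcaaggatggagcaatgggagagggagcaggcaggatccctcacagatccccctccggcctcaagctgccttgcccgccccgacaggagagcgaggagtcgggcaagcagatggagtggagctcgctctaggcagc
Pes1, chr11:3963725-3964024, plus strand: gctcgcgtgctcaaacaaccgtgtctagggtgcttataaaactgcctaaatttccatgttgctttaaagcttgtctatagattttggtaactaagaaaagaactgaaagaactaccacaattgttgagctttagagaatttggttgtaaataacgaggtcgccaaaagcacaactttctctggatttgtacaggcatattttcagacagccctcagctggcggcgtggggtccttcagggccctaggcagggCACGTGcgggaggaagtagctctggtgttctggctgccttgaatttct
Nop14, chr5:34660099-34660398, minus strand: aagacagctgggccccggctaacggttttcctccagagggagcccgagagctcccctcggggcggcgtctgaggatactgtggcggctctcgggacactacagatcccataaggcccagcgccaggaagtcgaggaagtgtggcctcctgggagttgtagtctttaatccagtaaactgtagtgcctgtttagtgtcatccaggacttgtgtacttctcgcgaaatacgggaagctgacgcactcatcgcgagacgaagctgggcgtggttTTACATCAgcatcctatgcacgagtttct
The ETS core of Nhp2 begins 22 bases before the start. The E-box of Pes1 begins at base 2 after the start and the ATF4 core of Nop14, read on the other strand, at base 21. The Gnl3 and Ubtf windows hold none of the searched motifs, which says only that these letters are not in these windows.

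An E-box lay in 6 of the 31 member promoters (19.4%), against 11.8% of 9681 tested genes with a promoter in the table. The 6 were Pes1, Wdr43, Nop2, Utp20, Rrn3 and Mybbp1a. An ETS core lay in 16 of 31 (51.6%), against 34.6% of the tested genes, and the ATF4 core in 1 of 31 (3.23%), against 2.78%. Of the 12 members with a promoter that rose in every background, 2 held an E-box, 5 an ETS core and 1 the ATF4 core. These are descriptions of letters, with no test of binding.

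The set was higher in KO hearts of each background. It was chosen with earlier results of these data known, so its shares beside those of all genes are a description, not independent evidence. In BL6J, 24 of the 36 members (66.7%) rose and none fell, where 12.8% of all genes tested rose and 9.51% fell. In AJ-F1, 20 members (55.6%) rose and none fell, where 12.9% of all genes rose and 15.7% fell. In CAST-F1, 22 members (61.1%) rose and none fell, where 10.7% of all genes rose and 9.59% fell. "Rose" and "fell" stand throughout for an adjusted p under 0.05 in edgeR's quasi-likelihood test, with Benjamini-Hochberg adjustment over all genes tested. The median log2 fold change of KO over WT was 0.68 in BL6J, 0.58 in AJ-F1 and 0.78 in CAST-F1 over the members, beside 0.01, 0.01 and −0.02 over all genes. Without BL6J KO 2 the BL6J count was 26, and without AJ-F1 WT 3 the AJ-F1 count was 20. The AJ-F1 count was 12 without AJ-F1 KO 3, and 7 when AJ-F1 was fitted alone.

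Of the 36 members, 16 rose in all 3 backgrounds, a pattern seen in 5.99% of all genes. A further 7 rose in 2 backgrounds, 4 rose in 1 and 9 in none. The 16 were Taf1d, Nop58, Fbl, Nhp2, Wdr43, Wdr75, Heatr1, Nop14, Rrp12, Bop1, Pes1, Wdr12, Nop16, Noc2l, Gnl3 and Npm1. With any 1 of the 21 libraries left out, the number rising in all 3 backgrounds lay between 11 and 17, and it was 7 with each background fitted alone. Fbl, Nhp2, Wdr75, Heatr1, Rrp12, Wdr12, Nop16, Gnl3 and Npm1 remained in it with any 1 library left out. The lowest number with a library left out, 11, came without AJ-F1 KO 3, BL6J KO 1, CAST-F1 KO 1, CAST-F1 WT 1 or CAST-F1 WT 3. The number was 17 without BL6J KO 2 and 16 without AJ-F1 WT 3. In the average of the 3 backgrounds, 33 members rose and none fell, where 23.7% of all genes rose and 24.2% fell.

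Summed over the 36 members, the level was 1976 ± 313 CPM in BL6J KO hearts and 1249 ± 58.9 CPM in BL6J WT hearts (SD, n = 4 each), a ratio of 1.58. The sum was 1897 ± 74.2 CPM in AJ-F1 KO hearts (SD, n = 3) and 1207 ± 28.8 CPM in AJ-F1 WT hearts (SD, n = 4), a ratio of 1.57. It was 2018 ± 87.5 CPM in CAST-F1 KO hearts and 1290 ± 62 CPM in CAST-F1 WT hearts (SD, n = 3 each), a ratio of 1.56. Such a sum weighs the abundant genes most. By role the ratio ran from 1.12 to 1.8 in BL6J, 1.17 to 2.03 in AJ-F1 and 1.18 to 1.87 in CAST-F1. No KO heart overlapped the WT hearts of its background: the lowest KO sum was 1510 CPM in BL6J, 1816 CPM in AJ-F1 and 1917 CPM in CAST-F1, and the highest WT sum 1327, 1231 and 1360 CPM. Fewer cells of a type and less RNA per cell cannot be told apart in such whole-tissue samples.

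**Figure D1:**
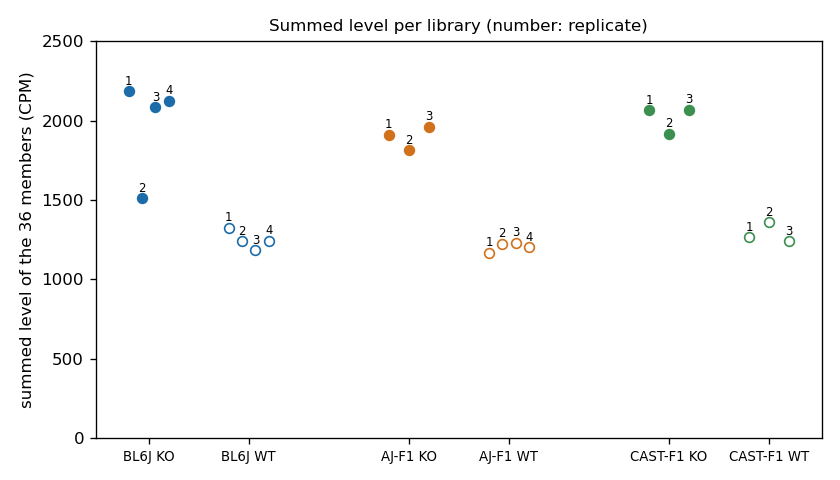
Summed level of the 36 genes (CPM) in each library, KO left of WT within each background, numbered by replicate. Every KO library lies above every WT library of its background, with BL6J KO 2 at 1510 CPM lowest among the KO hearts.

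Member by member, every KO library lay above every WT library for 19 of 36 members in BL6J (15.5% of all genes), 19 in AJ-F1 (14.1%) and 30 in CAST-F1 (24%). It did so in all 3 backgrounds for 15 members, against 7.18% of all genes. No member had every KO library below every WT library in any background, where 12.9%, 14.9% and 22.6% of all genes did in BL6J, AJ-F1 and CAST-F1. The mean change over the backgrounds was above 0.5 (log2) for 24 of the 36 members, or 66.7%, and for 14.7% of all genes.

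**Figure D2:**
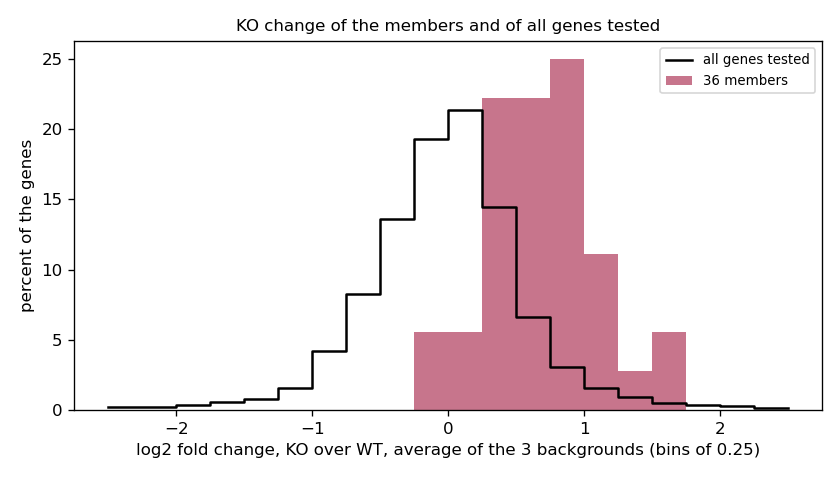
Distribution of the log2 fold change (KO over WT, average of the 3 backgrounds) of the 36 genes (bars) and of all 12333 genes tested (line), as percent of the genes per bin of 0.25. The members centre on a median of 0.67 and all genes on 0.01.

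The 5 Pol I subunits had a median average log2 change of 0.34, beside 0.37 for the initiation factors and 0.61 to 0.78 for the other roles. Polr1e rose in BL6J and CAST-F1, Polr1d rose in BL6J, and Polr1a, Polr1b and Polr1c rose in no single background. Polr1e (chr4:45018583-45036565, GRCm38) encodes a subunit of the heterodimer that Pol I has beside its core. In BL6J, Polr1e had 36, 40.3, 47.2 and 50.3 CPM in KO hearts, against 20.6, 22, 19.1 and 18.3 CPM in WT hearts. In AJ-F1, it had 38.6, 34.6 and 35.5 CPM in KO hearts, against 24.7, 32.3, 22.8 and 31.6 CPM in WT hearts. In CAST-F1, Polr1e had 28, 33.7 and 42.1 CPM in KO hearts, against 21.1, 19.2 and 16.5 CPM in WT hearts. Every KO library lay above every WT library in each background, by the narrowest margin in AJ-F1, where WT hearts were higher than in the other backgrounds. Polr1e changed by 1.12 ± 0.16 (log2, SE) in BL6J hearts at an adjusted p of 1.61e-05. Its AJ-F1 change was 0.38 ± 0.16 at 0.0889, and its CAST-F1 change 0.87 ± 0.18 at 0.00153. Reads of Polr1e and of Fbxo10, which overlaps it by 2319 bases on the other strand, can be told apart only if counting used strand, which is not given in the sources used here.

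Polr1b, the second-largest subunit, changed by 0.51 ± 0.20 in BL6J, 0.31 ± 0.21 in AJ-F1 and 0.61 ± 0.22 in CAST-F1 (log2), short of the threshold in each and past it in the average (0.48 ± 0.12, adjusted p = 0.00259). Polr1c and Polr1d, which Pol I shares with Pol III, averaged 0.34 ± 0.13 and 0.23 ± 0.09, with adjusted p of 0.033 and 0.0465. The Polr1d rise in BL6J (0.48 ± 0.15) was lost without BL6J KO 1, BL6J WT 3 or BL6J WT 4 (adjusted p up to 0.0754). Polr1a, the catalytic largest subunit, was the member of this role that did not pass the test even in the average (0.18 ± 0.10, adjusted p = 0.146). Outside the set, 12 further Pol I genes were tested, among them TAFs and other subunits, some of which Pol I shares with Pol II and Pol III. Of these 12, 1 rose in BL6J, none in AJ-F1 and 1 in CAST-F1, with median log2 changes of 0.36, 0.02 and 0.25. All genes rose at 12.8%, 12.9% and 10.7% in the same order. Twistnb, a Pol I subunit, rose by 0.53 ± 0.17 and Taf1b, a subunit of the promoter selectivity factor, by 0.47 ± 0.13 in the average.

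The 3 initiation factors did not move alike. Taf1d, a subunit of the Pol I promoter selectivity factor, rose in every background. Rrn3, which joins Pol I to the promoter complex, rose in AJ-F1 and CAST-F1, and Ubtf, which binds along active ribosomal DNA, did not pass the test in any. Taf1d (chr9:15306214-15316991, GRCm38) had low counts and a wide spread. Taf1d measured 25.7, 13.2, 25.1 and 17.3 CPM in KO hearts, against 8.45, 8.98, 13.7 and 8.43 CPM in WT hearts, in BL6J. The AJ-F1 values of Taf1d were 14.4, 21.7 and 15.1 CPM in KO hearts, against 10.9, 10.8, 1.64 and 5.91 CPM in WT hearts. Those in CAST-F1 were 21.8, 34.4 and 20.8 CPM in KO hearts, against 9.24, 9.53 and 8.95 CPM in WT hearts. The groups overlapped in BL6J, where KO 2 lay under WT 3, and did not overlap in AJ-F1 or CAST-F1. Taf1d rose by 1.05 ± 0.34 (log2, SE) in BL6J hearts at an adjusted p of 0.0302. The Taf1d change was 1.21 ± 0.37 at 0.017 in AJ-F1 and 1.47 ± 0.40 at 0.00997 in CAST-F1. Its call was lost in BL6J without KO 1, KO 3, WT 1, WT 2 or WT 4 of that background, in AJ-F1 without KO 2 and in CAST-F1 without KO 2 (adjusted p 0.0659 to 0.0922). Taf1d holds 8 snoRNA genes within its span and has 1 near-identical copy in the genome, and how many of its reads come from either was not measured.

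Rrn3 changed by 0.24 ± 0.12 (log2, SE) in BL6J hearts at an adjusted p of 0.167. In AJ-F1 hearts Rrn3 changed by 0.48 ± 0.12 at 0.00663, and in CAST-F1 hearts by 0.41 ± 0.14 at 0.0385. Its call was lost in AJ-F1 without KO 3, and in CAST-F1 without KO 1, KO 3, WT 1, WT 2 or WT 3 (adjusted p 0.0726 to 0.13). Ubtf (chr11:102304560-102319742, GRCm38) is shown in full as a member that did not pass the test. The BL6J hearts had, for Ubtf, 76.5, 50.1, 63.5 and 63.5 CPM in KO hearts, against 78.2, 62.3, 69 and 59.6 CPM in WT hearts. Values of Ubtf in AJ-F1 were 51.4, 63.8 and 62.4 CPM in KO hearts, against 57.1, 52.7, 63.3 and 73.6 CPM in WT hearts. In CAST-F1, Ubtf measured 61.2, 52.8 and 61.4 CPM in KO hearts, against 58.8, 72.3 and 69.2 CPM in WT hearts. The KO and WT hearts overlapped in all 3 backgrounds. The log2 change of Ubtf was −0.09 ± 0.14 in BL6J, −0.06 ± 0.15 in AJ-F1 and −0.19 ± 0.17 in CAST-F1, and the 95% interval of its average change ran from −0.30 to 0.07.

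**Figure D3:**
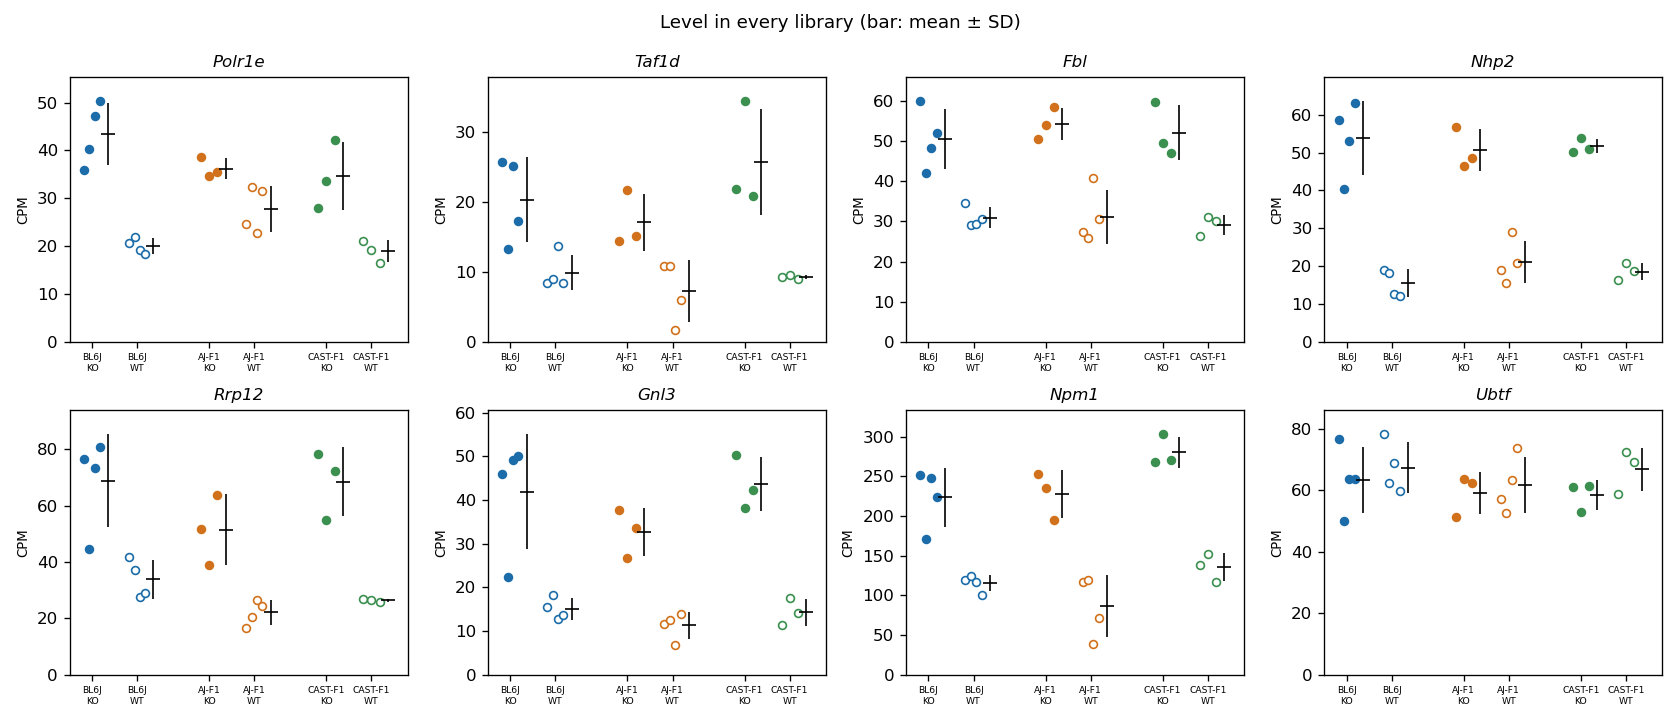
Level (CPM, axis from 0) of the member of each role with the smallest p in the average, and of Ubtf, in every library, KO (filled) left of WT (open), with the mean and SD beside the points. Only Taf1d in BL6J and Ubtf show KO libraries within the range of WT libraries.

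Of the 4 box C/D snoRNP proteins, Fbl and Nop58 rose in all backgrounds, Nop56 in BL6J and CAST-F1, and Rrp9 in none. Fbl (chr7:28169710-28179269, GRCm38) encodes fibrillarin, the methyltransferase of these particles. In BL6J, Fbl had 60, 42.2, 48.3 and 52 CPM in KO hearts, against 34.7, 29, 29.4 and 30.7 CPM in WT hearts. In AJ-F1, it had 50.5, 54 and 58.5 CPM in KO hearts, against 27.3, 25.8, 40.8 and 30.7 CPM in WT hearts. In CAST-F1, Fbl had 59.9, 49.5 and 47.2 CPM in KO hearts, against 26.3, 31 and 30 CPM in WT hearts. Every KO library exceeded every WT library of its background, and AJ-F1 WT 3 was the highest WT heart. Fbl rose by 0.71 ± 0.15 (log2, SE) in BL6J hearts at an adjusted p of 0.00123. Its AJ-F1 change was 0.80 ± 0.16 at 0.000659, and its CAST-F1 change 0.84 ± 0.17 at 0.00113. Fbl has 1 near-identical copy in the genome.

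The paired scaffold proteins of the same particle are Nop56 and Nop58. Nop58 rose by 1.62 ± 0.34 (log2, SE) in BL6J hearts at an adjusted p of 0.00127. The Nop58 change was 1.16 ± 0.36 at 0.0187 in AJ-F1 and 1.32 ± 0.38 at 0.0156 in CAST-F1. Its call was lost in AJ-F1 without KO 1, KO 3 or WT 4, and in CAST-F1 without KO 1, WT 1 or WT 3 (adjusted p 0.0521 to 0.0729). Nop56 rose by 0.62 ± 0.17 in BL6J and 0.83 ± 0.19 in CAST-F1, beside 0.36 ± 0.18 in AJ-F1 (adjusted p = 0.13), and has 4 near-identical copies in the genome. Rrp9, the protein of the C/D particle that acts on the small-subunit precursor, passed the test only in the average (0.34 ± 0.14, adjusted p = 0.0405).

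The H/ACA snoRNP proteins held the member with the smallest p of the set. Nhp2 (chr11:51619735-51623714, GRCm38), a structural protein of the pseudouridylating particle and of telomerase, rose in every background. Nhp2 measured 58.7, 40.5, 53.1 and 63 CPM in KO hearts, against 18.9, 18.3, 12.7 and 12 CPM in WT hearts, in BL6J. The AJ-F1 values of Nhp2 were 56.9, 46.5 and 48.5 CPM in KO hearts, against 19, 15.6, 28.9 and 20.9 CPM in WT hearts. Those in CAST-F1 were 50.3, 53.9 and 51 CPM in KO hearts, against 16.3, 20.7 and 18.6 CPM in WT hearts. The lowest KO heart, at 40.5 CPM, was above the highest WT heart of any background, at 28.9 CPM. Nhp2 rose by 1.79 ± 0.19 (log2, SE) in BL6J hearts at an adjusted p of 3.52e-07. In AJ-F1 hearts Nhp2 changed by 1.27 ± 0.19 at 5.35e-05, and in CAST-F1 hearts by 1.48 ± 0.22 at 3.36e-05. Its partners in the particle had smaller changes, and the differences between these genes were not tested. Gar1 rose in BL6J (1.02 ± 0.24) and CAST-F1 (0.94 ± 0.26) and had 0.47 ± 0.24 in AJ-F1 (adjusted p = 0.154). The CAST-F1 call of Gar1 was lost without CAST-F1 KO 3 or WT 3 (adjusted p up to 0.0646). Nop10 rose in BL6J (0.61 ± 0.19), a call lost without BL6J KO 1, KO 3 or WT 4, and had 0.07 ± 0.20 in AJ-F1 and 0.60 ± 0.21 in CAST-F1 (adjusted p = 0.82 and 0.0501). The pseudouridine synthase Dkc1 passed the test only in the average (0.39 ± 0.13, adjusted p = 0.016).

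Of the 8 small-subunit assembly factors, Rrp12, Wdr75, Heatr1, Wdr43 and Nop14 rose in all 3 backgrounds, Utp20 and Noc4l in AJ-F1, and Nol6 in none. Rrp12 (chr19:41862851-41896173, GRCm38) encodes a factor of nuclear export and maturation of the pre-ribosome, known from yeast. The BL6J hearts had, for Rrp12, 76.7, 44.6, 73.5 and 80.8 CPM in KO hearts, against 41.8, 37.1, 27.5 and 28.9 CPM in WT hearts. Values of Rrp12 in AJ-F1 were 51.8, 38.8 and 63.9 CPM in KO hearts, against 16.7, 20.6, 26.7 and 24.4 CPM in WT hearts. In CAST-F1, Rrp12 measured 78.3, 54.9 and 72.5 CPM in KO hearts, against 27, 26.4 and 25.8 CPM in WT hearts. No KO heart overlapped the WT hearts of its background, and BL6J KO 2 stood closest to them. Rrp12 rose by 1.02 ± 0.20 (log2, SE) in BL6J hearts at an adjusted p of 0.000603. Its AJ-F1 change was 1.22 ± 0.21 at 0.000225, and its CAST-F1 change 1.38 ± 0.23 at 0.000185.

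Wdr75, Heatr1 and Wdr43 belong to the complex that joins the growing ribosomal RNA precursor first and also supports its transcription. Wdr75 is at chr1:45795166-45823619, GRCm38. In BL6J, Wdr75 had 30.2, 20.4, 32.5 and 32.7 CPM in KO hearts, against 16.9, 11.3, 10.5 and 13.6 CPM in WT hearts. In AJ-F1, it had 25, 18.8 and 23.4 CPM in KO hearts, against 11.4, 15.3, 5.08 and 8.52 CPM in WT hearts. In CAST-F1, Wdr75 had 30.2, 21.8 and 31.2 CPM in KO hearts, against 11.3, 10.5 and 14.6 CPM in WT hearts. Each KO library was above each WT library of its background, and AJ-F1 WT 3 was the lowest heart. Wdr75 rose by 1.14 ± 0.25 (log2, SE) in BL6J hearts at an adjusted p of 0.00165. The Wdr75 change was 1.15 ± 0.26 at 0.00269 in AJ-F1 and 1.19 ± 0.29 at 0.00474 in CAST-F1. Heatr1 rose by 0.97 ± 0.22, 1.02 ± 0.23 and 0.94 ± 0.25 in BL6J, AJ-F1 and CAST-F1. Wdr43 rose by 0.85 ± 0.26, 0.76 ± 0.28 and 0.91 ± 0.31 in the same order, but close to the threshold, and its AJ-F1 call was lost in 21 of the 28 other settings tried. The Wdr43 call was also lost in BL6J without KO 1, KO 3, KO 4 or WT 4, and in CAST-F1 without KO 1, KO 3, WT 1, WT 2 or WT 3.

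Nop14, a core factor of the small-subunit processome, rose by 0.69 ± 0.18 in BL6J, 0.81 ± 0.20 in AJ-F1 and 0.64 ± 0.22 in CAST-F1. Its CAST-F1 call was lost without any 1 of the 6 CAST-F1 libraries (adjusted p 0.0691 to 0.122), and its BL6J call without BL6J KO 1 (adjusted p = 0.0506). Noc4l, its partner in yeast, rose in AJ-F1 (0.65 ± 0.22), a call lost without each AJ-F1 library but WT 3 (adjusted p 0.0596 to 0.103). Utp20, a long scaffold of the processome, rose in AJ-F1 (0.77 ± 0.24), a call lost without AJ-F1 KO 3 (adjusted p = 0.21). Nol6 had 0.15 ± 0.16 in BL6J, −0.18 ± 0.17 in AJ-F1 and −0.04 ± 0.19 in CAST-F1, none past the threshold. Outside the set, 40 further small-subunit factors were tested. Of these 40, 13 rose in BL6J, 12 in AJ-F1 and 13 in CAST-F1, none fell, and the median log2 changes were 0.43, 0.51 and 0.52. The shares that rose were 32.5%, 30% and 32.5%, where 12.8%, 12.9% and 10.7% of all genes rose. Dhx37, an RNA helicase of the processome, rose by 1.09 ± 0.13, and Ltv1, an adaptor on the late small-subunit precursor, by 0.95 ± 0.10 in the average.

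Of the 8 large-subunit assembly factors, 8 rose in BL6J, 8 in CAST-F1 and 6 in AJ-F1. Gnl3 (chr14:31012433-31019152, GRCm38) encodes nucleostemin, a nucleolar GTPase. Gnl3 measured 46, 22.3, 49.1 and 50.1 CPM in KO hearts, against 15.4, 18.3, 12.7 and 13.6 CPM in WT hearts, in BL6J. The AJ-F1 values of Gnl3 were 37.7, 26.7 and 33.5 CPM in KO hearts, against 11.6, 12.6, 6.89 and 14 CPM in WT hearts. Those in CAST-F1 were 50.3, 38.1 and 42.3 CPM in KO hearts, against 11.3, 17.5 and 14.1 CPM in WT hearts. The KO and WT hearts did not overlap in any background, though BL6J KO 2 was near the WT hearts. Gnl3 rose by 1.48 ± 0.24 (log2, SE) in BL6J hearts at an adjusted p of 8.29e-05. In AJ-F1 hearts Gnl3 changed by 1.52 ± 0.25 at 0.000118, and in CAST-F1 hearts by 1.60 ± 0.27 at 0.000205. Gnl3 holds 3 snoRNA genes within its span.

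Nop16 (chr13:54584185-54590090, GRCm38) is a nucleolar factor of the large-subunit precursor. The BL6J hearts had, for Nop16, 34.8, 20.2, 26.4 and 30.1 CPM in KO hearts, against 15.5, 17.6, 14.3 and 13 CPM in WT hearts. Values of Nop16 in AJ-F1 were 23.1, 22 and 22.9 CPM in KO hearts, against 8.7, 11.3, 15.4 and 15.8 CPM in WT hearts. In CAST-F1, Nop16 measured 23.3, 26 and 26.9 CPM in KO hearts, against 9.98, 11 and 11.7 CPM in WT hearts. No overlap was seen in any background. Nop16 rose by 0.88 ± 0.18 (log2, SE) in BL6J hearts at an adjusted p of 0.00115. Its AJ-F1 change was 0.82 ± 0.20 at 0.00353, and its CAST-F1 change 1.22 ± 0.22 at 0.000328.

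Pes1, Bop1 and Wdr12 form the PeBoW complex, which large-subunit maturation and cell growth need, and all 3 rose in every background. Bop1 is at chr15:76452989-76477277, GRCm38. In BL6J, Bop1 had 56.1, 40.1, 53.1 and 63.7 CPM in KO hearts, against 32.1, 28.8, 27.8 and 35.5 CPM in WT hearts. In AJ-F1, it had 52.5, 54.4 and 64.3 CPM in KO hearts, against 26.5, 28.9, 51.3 and 30.6 CPM in WT hearts. In CAST-F1, Bop1 had 53.3, 49.1 and 49.7 CPM in KO hearts, against 25, 29.9 and 23.9 CPM in WT hearts. Within each background every KO heart was above every WT heart, but AJ-F1 WT 3 reached 51.3 CPM, just under the lowest AJ-F1 KO heart at 52.5 CPM. Bop1 rose by 0.78 ± 0.18 (log2, SE) in BL6J hearts at an adjusted p of 0.00306. The Bop1 change was 0.74 ± 0.19 at 0.0063 in AJ-F1 and 0.95 ± 0.21 at 0.00247 in CAST-F1. The AJ-F1 call was lost without AJ-F1 KO 3 (adjusted p = 0.0534). Scx lies within Bop1 on the other strand over 2007 bases.

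Wdr12, the third protein of the complex, is at chr1:60069785-60098645, GRCm38. Wdr12 measured 31.4, 18.3, 30.6 and 25 CPM in KO hearts, against 17.1, 16.2, 13.2 and 14.8 CPM in WT hearts, in BL6J. The AJ-F1 values of Wdr12 were 25.7, 19.8 and 21 CPM in KO hearts, against 13.2, 14.3, 13 and 13.2 CPM in WT hearts. Those in CAST-F1 were 28.7, 25.1 and 24.8 CPM in KO hearts, against 14.1, 13 and 14.1 CPM in WT hearts. Again no KO heart overlapped the WT hearts of its background. Wdr12 rose by 0.78 ± 0.16 (log2, SE) in BL6J hearts at an adjusted p of 0.000954. In AJ-F1 hearts Wdr12 changed by 0.72 ± 0.17 at 0.00313, and in CAST-F1 hearts by 0.93 ± 0.19 at 0.000875. Its transcript closely matches the processed pseudogene Gm4879 and stretches of annotated transcripts of the protein-coding genes Vmn1r88 and Cxcr2. Pes1 rose by 0.43 ± 0.15, 0.46 ± 0.16 and 0.73 ± 0.18 in BL6J, AJ-F1 and CAST-F1. Its BL6J and AJ-F1 calls lay at the threshold, with adjusted p of 0.0472 and 0.0391, and were lost in 19 and 10 of the 28 other settings. Pes1 overlaps 4930556J24Rik on the other strand over 12804 bases and has 2 near-identical copies.

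Noc2l and Noc3l, partners in yeast, and Nop2, a methyltransferase of large-subunit RNA, complete the role. Noc2l rose by 0.45 ± 0.16, 0.52 ± 0.17 and 0.62 ± 0.19 in BL6J, AJ-F1 and CAST-F1. The Noc2l call was lost in 18 of the 28 other settings in BL6J, without AJ-F1 KO 2, KO 3, WT 1, WT 2 or WT 4 in AJ-F1, and without CAST-F1 KO 1, KO 3 or WT 1 in CAST-F1. Noc3l rose in BL6J (0.66 ± 0.22) and CAST-F1 (0.94 ± 0.26) and had 0.63 ± 0.24 in AJ-F1 (adjusted p = 0.0506). Its BL6J call was lost without BL6J KO 1, KO 3, KO 4, WT 1 or WT 2. Nop2 rose in BL6J (0.72 ± 0.21) and CAST-F1 (0.91 ± 0.25) and had 0.28 ± 0.23 in AJ-F1 (adjusted p = 0.37). Its call was lost in BL6J without KO 3 or KO 4, and in CAST-F1 without KO 1 (adjusted p 0.0533 to 0.0561).

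Outside the set, 46 further large-subunit factors were tested. Of these, 16 rose in BL6J, 23 in AJ-F1 and 19 in CAST-F1, and 1 (Pelp1, −0.72 ± 0.22) fell in CAST-F1. The shares that rose were 34.8%, 50% and 41.3%, where 12.8%, 12.9% and 10.7% of all genes rose. Rpf2, a factor of early large-subunit assembly, rose by 1.36 ± 0.13, Nip7 by 1.03 ± 0.11 and Nsa2 by 0.72 ± 0.08 in the average.

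**Figure D4:**
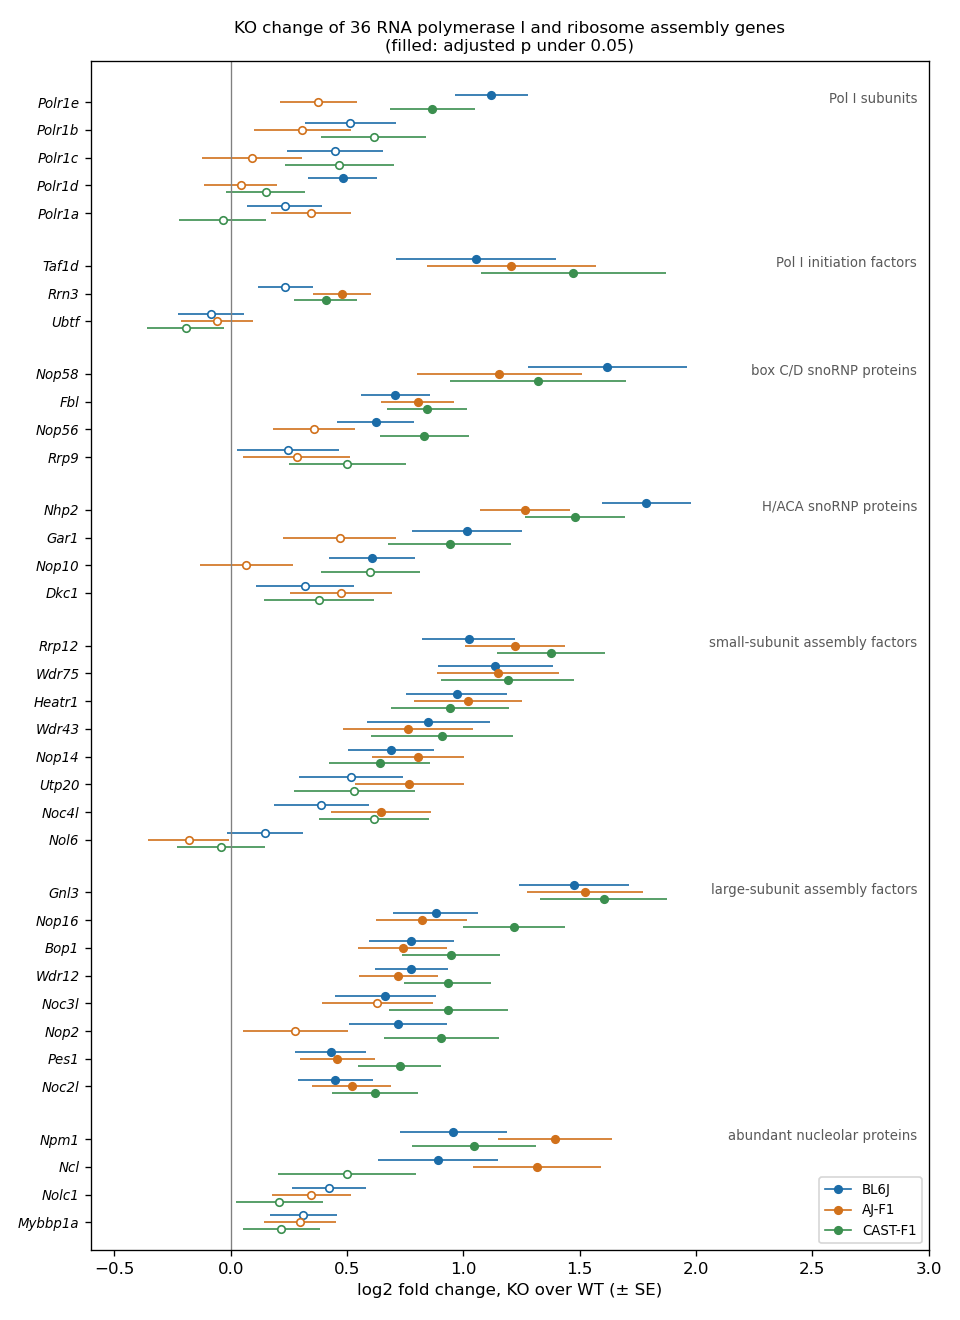
Log2 fold change of KO over WT with its SE for each of the 36 genes, ordered by role, in BL6J, AJ-F1 and CAST-F1. Filled points have an adjusted p under 0.05, and all filled points lie right of 0.

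Of the 4 abundant nucleolar proteins, Npm1 rose in every background and Ncl in BL6J and AJ-F1, and Nolc1 and Mybbp1a passed the test only in the average. Npm1 (chr11:33152287-33163206, GRCm38) encodes nucleophosmin, a histone and ribosomal protein chaperone. The BL6J hearts had, for Npm1, 252, 171, 248 and 224 CPM in KO hearts, against 119, 125, 117 and 101 CPM in WT hearts. Values of Npm1 in AJ-F1 were 253, 235 and 195 CPM in KO hearts, against 117, 119, 38.7 and 72 CPM in WT hearts. In CAST-F1, Npm1 measured 268, 303 and 270 CPM in KO hearts, against 138, 152 and 117 CPM in WT hearts. Every KO heart was above every WT heart, and the AJ-F1 WT hearts spread from 38.7 to 119 CPM. Npm1 rose by 0.96 ± 0.23 (log2, SE) in BL6J hearts at an adjusted p of 0.00398. Its AJ-F1 change was 1.39 ± 0.25 at 0.00024, and its CAST-F1 change 1.05 ± 0.27 at 0.00674. Npm1 has 4 near-identical copies in the genome. Ncl, nucleolin, rose by 0.89 ± 0.26 in BL6J and 1.32 ± 0.27 in AJ-F1 and had 0.50 ± 0.30 in CAST-F1 (adjusted p = 0.258). The AJ-F1 WT hearts had 149, 158, 41.2 and 84.3 CPM of Ncl, with WT 3 the lowest, against 261, 245 and 303 CPM in AJ-F1 KO hearts. Over the 28 other settings the AJ-F1 change of Ncl ran from 1.03 to 1.56, and its call was lost in 1. Nolc1, a chaperone of snoRNPs, and Mybbp1a, a nucleolar regulator of transcription, averaged 0.33 ± 0.10 and 0.28 ± 0.09 (adjusted p = 0.0105 and 0.0146).

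Per length, the members spanned a wide range in WT hearts. Averaged over the 3 WT groups, the small H/ACA protein Nop10 stood highest at 65.5 CPM per kilobase of exon, followed by Npm1 at 42.2 and Polr1d at 23.6. The exon length of every member joins all its annotated transcripts, and the order depends on that length. Ncl, whose WT means were the highest of the set (137, 108 and 194 CPM in BL6J, AJ-F1 and CAST-F1), had 14.4 CPM per kilobase over 10188 bases. Taf1d was lowest at 0.984 CPM per kilobase, over an exon length of 8949 bases that joins all its annotated transcripts. Without division by length, its WT means of 9.88, 7.31 and 9.24 CPM (BL6J, AJ-F1, CAST-F1) were above those of Gar1 (3.92, 4.66 and 4.93 CPM). The 36 genes lie on 17 chromosomes, with at most 5 on 1 chromosome. Taf1d, Nop56, Nop58, Dkc1, Wdr43, Gnl3 and Ncl, 7 of the 36, hold 27 snoRNA genes within their spans. Their median average change was 0.90 (log2), beside 0.61 for the other 29 members.

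Whether the backgrounds responded unequally was tested as the difference between KO changes. No member passed in any of the 3 differences by edgeR or by DESeq2, where edgeR called 1, 4 and 11 of all genes (0.00811%, 0.0324% and 0.0892%). At an unadjusted p under 0.05, 1 member differed between AJ-F1 and BL6J and none in the other pairs, where 11.1% of all genes did for AJ-F1 against BL6J, 4.84% for CAST-F1 against BL6J and 9.88% for CAST-F1 against AJ-F1. That member was Polr1e, whose KO change was lower in AJ-F1 than in BL6J by a log2 difference of −0.74 ± 0.23 (95% interval −1.22 to −0.27, adjusted p = 0.252). The largest difference between CAST-F1 and AJ-F1 was that of Ncl, −0.82 ± 0.40 (95% interval −1.65 to 0.02, adjusted p = 0.516). It rests in part on the AJ-F1 WT hearts, which spread from 41.2 CPM (WT 3) to 158 CPM of Ncl. Over the 36 members the differences ran from −0.74 to 0.44 for AJ-F1 minus BL6J, from −0.39 to 0.42 for CAST-F1 minus BL6J and from −0.82 to 0.63 for CAST-F1 minus AJ-F1. A member that rose in 1 background and missed the threshold in another is therefore not shown to differ between them.

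Between WT hearts no member passed the edgeR test either. All genes were called at 3.26% for AJ-F1 against BL6J, 5.73% for CAST-F1 against BL6J and 5.26% for CAST-F1 against AJ-F1. At an unadjusted p under 0.05, 3 members were higher and 2 lower in AJ-F1 than in BL6J, none higher and 3 lower in CAST-F1 than in BL6J, and 3 higher and 3 lower in CAST-F1 than in AJ-F1. At the same unadjusted threshold 22.4%, 19% and 21.5% of all genes were called in these comparisons, in either direction. Rrn3 came nearest, at −0.43 ± 0.13 for WT CAST-F1 against WT AJ-F1 (adjusted p = 0.0531) and −0.40 ± 0.13 for WT CAST-F1 against WT BL6J (adjusted p = 0.0772). DESeq2's Wald test called both (adjusted p = 0.0213 and 0.0325), and called Polr1e lower in WT CAST-F1 than in WT AJ-F1 (−0.56, adjusted p = 0.0355). Strain alleles that align less well to the reference build give lower counts too, and their part was not tested.

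**Figure D5:**
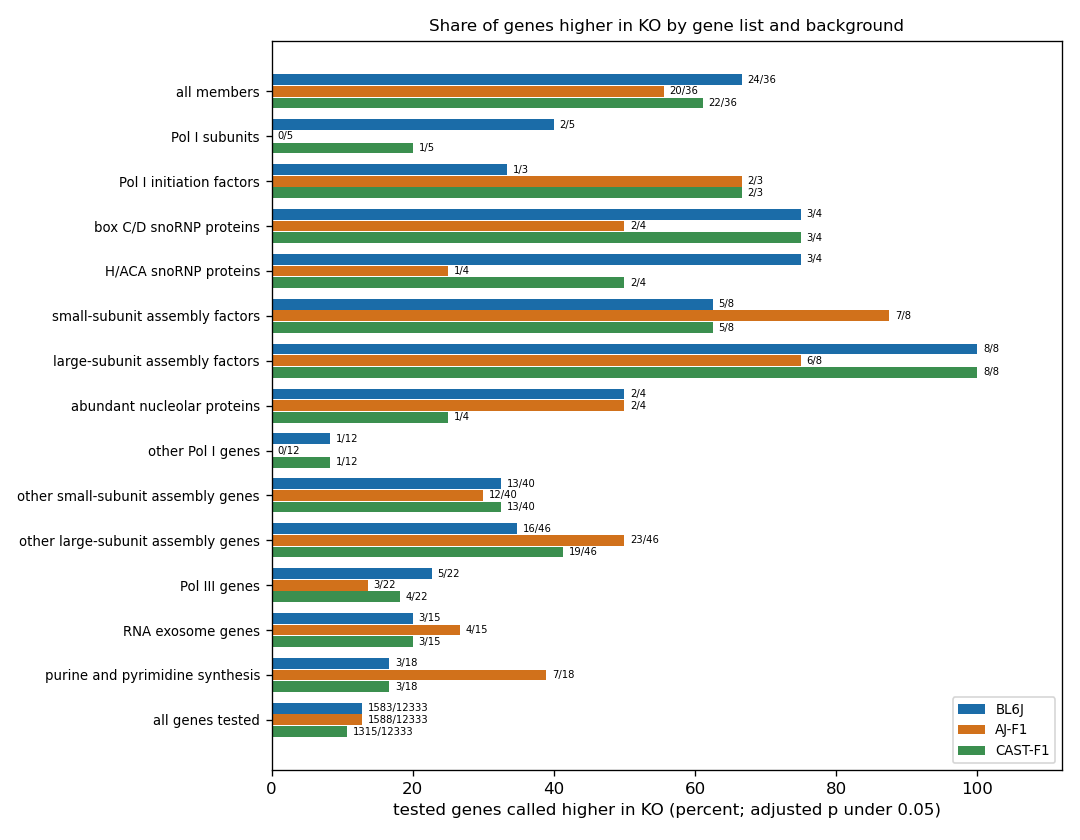
Percent of tested genes that rose in KO hearts (adjusted p under 0.05), by list and background, with the counts beside each bar and all genes tested at the bottom. The large-subunit factors of the set stand at 8 of 8 in BL6J and CAST-F1 and 6 of 8 in AJ-F1, and all genes at 10.7 to 12.9%.

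Neighbouring pathways were counted in the same way, where 12.8%, 12.9% and 10.7% of all genes rose in BL6J, AJ-F1 and CAST-F1. All genes fell at 9.51%, 15.7% and 9.59%. In that order 22.7%, 13.6% and 18.2% of Pol III genes and 20%, 26.7% and 20% of RNA exosome genes rose. For purine and pyrimidine synthesis the shares that rose were 16.7%, 38.9% and 16.7%. Genes named from a list were picked, most of them by smallest p, and do not stand for the list. Among 22 genes of Pol III, the polymerase of transfer RNA and the smallest ribosomal RNA, 5, 3 and 4 rose and none, 1 and 3 fell in BL6J, AJ-F1 and CAST-F1. Polr3g, the alternative form of a Pol III subunit, rose by 1.77 ± 0.15 in the average, while its counterpart Polr3gl fell by 0.32 on the log2 scale and Brf1, an initiation factor, by 0.41. Among 15 genes of the RNA exosome, which trims pre-ribosomal RNA, 3, 4 and 3 rose and none fell, with Exosc2 at 0.98 ± 0.14. Of 18 genes of purine and pyrimidine synthesis, 3, 7 and 3 rose, and none, 1 and 1 fell. Ctps, which makes CTP, rose by 0.99 ± 0.11 and Atic, an enzyme of purine synthesis, by 0.96 ± 0.10 in the average.

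Of 9 tested genes of the Myc network, 1 (11.1%) rose in each background, Myc itself. All genes rose at 12.8%, 12.9% and 10.7% in BL6J, AJ-F1 and CAST-F1. Myc is the transcription factor best known for driving the genes of ribosome production. Myc stood at 76.7, 26.5, 73.3 and 84.8 CPM in KO hearts, against 11.4, 5.73, 4.55 and 6.22 CPM in WT hearts in BL6J. It stood at 74.5, 74.4 and 68.2 CPM in KO hearts, against 6.93, 3.61, 5.74 and 3.41 CPM in WT hearts in AJ-F1. It stood at 103, 97.3 and 105 CPM in KO hearts, against 3.7, 4.29 and 9.13 CPM in WT hearts in CAST-F1. Every KO heart was above every WT heart, with BL6J KO 2 the lowest KO heart. Whether Myc has a part in the changes of the members was not tested. On the log2 scale Myc rose by 3.20 ± 0.34 in BL6J hearts at an adjusted p of 2.9e-07. Its AJ-F1 change was 3.89 ± 0.35 at 4.19e-08, and its CAST-F1 change 4.15 ± 0.40 at 1.12e-07. Mycn and Mxd4 fell in AJ-F1 (−1.29 ± 0.46 and −0.71 ± 0.24), and Mxd1, a repressor that competes for Max, fell in the average (−0.58 ± 0.13). Of 16 tested p53 target genes, which p53 induces under several kinds of stress, 12 rose in BL6J, 9 in AJ-F1 and 8 in CAST-F1, and 2, 1 and 2 fell. Phlda3 rose by 1.65 ± 0.13 and the cell-cycle inhibitor Cdkn1a by 2.12 ± 0.25 in the average.

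Markers of some heart cell types were lower in KO hearts, in numbers that varied by list and background. Of all genes, 9.51%, 15.7% and 9.59% fell in BL6J, AJ-F1 and CAST-F1. The cardiomyocyte markers summed to 69560 to 77730, 69520 to 76670 and 70370 to 80260 CPM in KO hearts of BL6J, AJ-F1 and CAST-F1. The WT hearts had 91330 to 105600, 87590 to 97160 and 78610 to 106000 CPM in the same order. KO and WT sums of these markers overlapped only in CAST-F1. Of these 10 markers, 5, 3 and 5 fell in BL6J, AJ-F1 and CAST-F1, and 1 (Actc1) rose in CAST-F1. The fibroblast markers fell in AJ-F1 (9 of 9), with sums of 742.3 to 813 CPM in AJ-F1 KO hearts and 1326 to 2459 CPM in AJ-F1 WT hearts. In BL6J 2 of these 9 fell and in CAST-F1 none, with sums of 817.1 to 1012 CPM in BL6J KO hearts, 1014 to 1400 CPM in BL6J WT hearts, 853.2 to 1072 CPM in CAST-F1 KO hearts and 846.8 to 1774 CPM in CAST-F1 WT hearts.

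Endothelium markers fell for 1, 7 and 0 of 10 in BL6J, AJ-F1 and CAST-F1. Their sums were 674.5 to 1527, 713.7 to 1226 and 1139 to 1419 CPM in KO hearts of the 3 backgrounds in that order, against 1252 to 1628, 1324 to 2677 and 1412 to 2354 CPM in WT hearts. Smooth muscle and pericyte markers fell for 1, 5 and 3 of 7, with sums of 669.2 to 1265, 839.8 to 1057 and 821.3 to 961.2 CPM in KO hearts, against 1166 to 1404, 1065 to 1681 and 1182 to 1703 CPM in WT hearts. BL6J KO 2 had the highest endothelium and smooth muscle sums of the BL6J KO hearts and the lowest member sum. None of 9 macrophage markers was called in any background by edgeR, with sums of 168.1 to 696.4 CPM in KO hearts and 142 to 531.6 CPM in WT hearts. Lymphocyte markers were near 0, with sums of 0 to 3.58 CPM in KO hearts and 1.23 to 4.43 CPM in WT hearts and 5 of 6 markers at 5 reads or fewer in every library. Proliferation markers summed to 5.84 to 16.7 CPM in KO hearts and 7.22 to 20.5 CPM in WT hearts, and none of the 3 that could be tested was called. The part of cell makeup in the changes of the members was not tested.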

How the data were processed

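Heart ventricle RNA was sequenced in 21 libraries, stranded and from polyA RNA per the labels' protocols. HISAT, featureCounts and DESeq2 are named in the submitters' processing notes, as is the build GRCm38.p6. Versions, settings and the use of strand in counting are not given in the sources used here. The authors deposited raw read counts per gene symbol, and these were used for every test. Other deposited columns, among them fold changes and transformed values, were not used. Samples were grouped by background and genotype from their labels.

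Counts of all 21 libraries were fitted with edgeR's quasi-likelihood F test (edgeR 4.0.16, limma 3.58.1, R 4.3.3) with 6 group means, robust estimation, TMM factors (0.860 to 1.07) and no covariates. filterByExpr over the 6 groups kept 12333 of 14732 genes, holding 99.9% of the counts. Two-sided p-values were adjusted for all 12333 genes (Benjamini-Hochberg). Libraries of a group correlated with r of 0.895 to 0.983 over 27 pairs, and none were identical. Simulated counts, with changes placed in BL6J KO only and no library set apart, were used to check the code and lend no support to the calls. An SE is the log2 change divided by the root of its F value, and a 95% interval comes from the same fit. Alternatives were other normalisation factors, other filters, DESeq2 1.42.0, smaller fits, a replicate block and each library left out, 28 settings in all.

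The members, lists and roles were chosen with earlier results of these data known. Values in every library were given for the 10 members with the smallest p in the average, the best member of each role and any member called lower, between backgrounds or between WT groups (there were none of these). Other lists are illustrated by up to 3 called genes with the smallest p. Ubtf, Wdr43 and Pes1, the E-box and ATF4 examples and Mxd4, Actc1, Pelp1, Polr3gl and Brf1 were named after their values were seen. A planned permutation test of summed levels was left out, because the members form no independent score. Gene positions are from GENCODE (GRCm38) and promoters from RefSeq (GRCm38.p6). Near-identical copies were sought among annotated GENCODE transcripts of other genes and share at least 95% of bases over at least 200 bases of a transcript.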

Additional observations from a re-analysis of the deposited data

Results flagged for a closer look

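Each member was checked in each of the 3 groups of 4 libraries (BL6J KO, BL6J WT and AJ-F1 WT) for a library whose gap to its nearest neighbour exceeded Dixon's critical value of 0.829 of the group's range. This flagged 10 of 108 groups, where chance alone flags about 1 in 20, or 5.4. Groups of 3 libraries were not tested.

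BL6J KO 2 was the lowest of its group for Gnl3, at 22.3 CPM where the other BL6J KO hearts had 46.0 to 50.1 CPM. The same library was lowest for Nop2, at 25.9 CPM beside 46.9 to 48.4 CPM, and for Wdr43, at 19.3 CPM beside 36.7 to 37.1 CPM. AJ-F1 WT 3 was the highest of its group for Bop1, at 51.3 CPM beside 26.5 to 30.6 CPM, and the lowest for Nop14, at 12.6 CPM beside 24.7 to 25.3 CPM. BL6J WT 3 was highest for Taf1d, at 13.7 CPM beside 8.43 to 8.98 CPM, and lowest for Nop58, at 8.19 CPM beside 10.8 to 11.2 CPM. BL6J WT 4 was lowest for Nop10, at 52.6 CPM beside 73.9 to 75.1 CPM. AJ-F1 WT 1 was lowest for Nop56, at 28.7 CPM beside 39.5 to 41.2 CPM, and AJ-F1 WT 2 was highest for Wdr12, at 14.3 CPM beside 13.0 to 13.2 CPM.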

How the results depend on the processing

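With each library left out in turn, the members that rose numbered 16 to 27 in BL6J, 12 to 21 in AJ-F1, 16 to 26 in CAST-F1 and 30 to 33 in the average, and none fell. Between WT groups such fits called 0 to 2 members higher and 0 to 1 lower in AJ-F1 than in BL6J, 0 to 1 lower in CAST-F1 than in BL6J, and 0 to 3 higher and 0 to 2 lower in CAST-F1 than in AJ-F1. These calls arose without AJ-F1 WT 1, WT 2 or WT 3. With each background fitted alone 25 members rose in BL6J, 7 in AJ-F1 and 29 in CAST-F1, and the cause was not tested. Members rising in all 3 backgrounds then numbered 7, beside 11 with a replicate block and 12 to 16 in the other settings that keep all libraries. Members lower in WT CAST-F1 than in WT BL6J numbered 1 by DESeq2's Wald test, and those lower in WT CAST-F1 than in WT AJ-F1 numbered 1 with upper-quartile factors and 2 by the Wald test. Of 66 called changes within a background, 36 held in all 28 settings and 30 were lost in at least 1.

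A replicate block gave 20, 14 and 19 rising members in BL6J, AJ-F1 and CAST-F1 and 31 in the average, and 2172 calls over all genes in AJ-F1 in place of 3521. The labels do not say whether equal replicate numbers pair KO and WT samples. Deviations of 10 same-numbered pairs correlated at −0.229 to 0.081. Differently numbered pairs ran from −0.185 to 0.187, a like spread, so this check cannot show whether samples were paired.

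The sign turned only in changes short of the threshold. With a library left out, the log2 change of Ubtf ran from −0.19 to 0.01 in BL6J and from −0.13 to 0.04 in AJ-F1. In AJ-F1 that of Polr1c ran from −0.09 to 0.27, Polr1d from −0.07 to 0.19, Nop10 from −0.11 to 0.25 and Nol6 from −0.31 to 0.03. Polr1a in CAST-F1 ran from −0.13 to 0.08, and the average of Nol6 from −0.07 to 0.05. With the replicate block, Ubtf was 0.03 and Nop10 −0.04 in AJ-F1. The cause of these turns was not tested.

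Over all genes, fitting each background alone gave 1323 calls in AJ-F1 in place of 3521 and 4100 in CAST-F1 in place of 2498, and leaving out AJ-F1 KO 3 gave 2135 in AJ-F1. The 3 differences between backgrounds gave 0 to 57, 0 to 6 and 0 to 14 calls with a library left out, and 72, 27 and 84 by the Wald test, in place of 1, 4 and 11. The WT comparisons gave 117 to 2065, 305 to 1122 and 288 to 1691 calls with a library left out, and 90, 290 and 262 with WT libraries alone, in place of 402, 707 and 649. Other scalings moved the median change of all genes by less than 0.1 (log2). Counting error limits the low members most, with 10 reads the smallest value of a member.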
